A study of Homo sapiens with 2 samples.

Results

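Amino acid transporters of 6 solute carrier families were followed across 2 cultures of PLC/PRF/5, an established human hepatocellular carcinoma line. Members were all probe sets annotated to exactly 1 gene symbol that starts with SLC1A, SLC3A, SLC6A, SLC7A, SLC38A or SLC43A followed by a digit. This rule took 143 of the 54675 probe sets on the array and 60 of 19775 gene symbols. Of these symbols 54 are transporter genes or subunits, and 6 are antisense RNAs or, in the case of SLC7A6OS, a neighbour on the opposite strand. A probe set is a group of short probes that read 1 transcript region, and a gene can have several.

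The chemoresistant hepatospheres were tumour spheroids treated with cisplatin, a DNA-crosslinking platinum drug, and doxorubicin, an anthracycline. The differentiated cells were made by giving spheroids fetal bovine serum and letting them attach. RNA of each culture was hybridised to its own array. Each group had 1 array, so there is no replicate check, no test and no error on any difference. The cultures differ at once in spheroid growth, serum and attachment, and perhaps in drug exposure, since the labels give no treatment for the spheroids that were made to attach. In bulk RNA fewer cells of a type and less RNA per cell cannot be told apart. Values are MAS5 signals, a brightness per probe set on a linear scale. Signals below 84.1, the higher of the median signals of the arrays, were set to that floor, so a gene under it on 1 array has a lower bound, written "at least". A difference is the log2 signal of hepatospheres less that of differentiated cells, and "higher" or "lower" means in hepatospheres. Where signals are given as a pair, that of differentiated cells comes first.

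Cells take up most amino acids through carriers that either couple entry to sodium or swap one amino acid for another. The SLC7 light chains work bound to a heavy chain, SLC3A2 (CD98) or SLC3A1, which carries them to the membrane. SLC1 and SLC38 carriers bring in glutamine, alanine, serine and glutamate, and the gradients they build drive the SLC7 exchangers. SLC6 carriers serve amino acids and also taurine, creatine, betaine, GABA and the monoamines. In hepatocytes and liver tumours these carriers feed the urea cycle, glutathione synthesis and the mTORC1 growth pathway.

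Of the 54 transporter genes, 37 reached the floor on at least 1 array with their brightest probe set, which stands for the gene. Of the 37, 7 were at least 2-fold higher (18.9%, against 12.5% of all 12766 genes measured) and 3 at least 2-fold lower (8.11%, against 8.83%). The other 27 were within 2-fold. The median difference of the transporters was -0.05, and that of all genes was 0.05. A gene that reached the floor in hepatospheres alone can only come out above 0, which holds for 8 of the 37 and for SLC6A14, SLC7A8 and SLC38A11 among the 7 higher ones. Of the 29 transporters at or above the floor on both arrays, 4 were 2-fold higher (13.8%, against 11% of 11063 such genes) and 3 lower (10.3%, against 9.33%), with a median of -0.23 against -0.01. At 4-fold there was 1 transporter in each direction, where 2.99% of all genes were higher and 1.05% lower. At the level of probe sets, 68 of the 143 reached the floor, with 10 at least 2-fold higher (14.7%, against 11.6% of all named probe sets measured) and 6 lower (8.82%, against 9.59%). The shares of the transporters thus lay near those of all genes, and what follows concerns which carriers stood on which side. Counts for single role groups rest on few genes each and stand beside these same shares of all genes. The count of higher genes depended on the floor, being 3 when the floor was raised to the 60th percentile and 11 with no floor. With arrays scaled to their poly(A) controls 1 transporter was 2-fold higher (SLC6A8) and 20 lower, and with arrays centred on their medians 5 were higher and 6 lower.

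**Figure D1:**
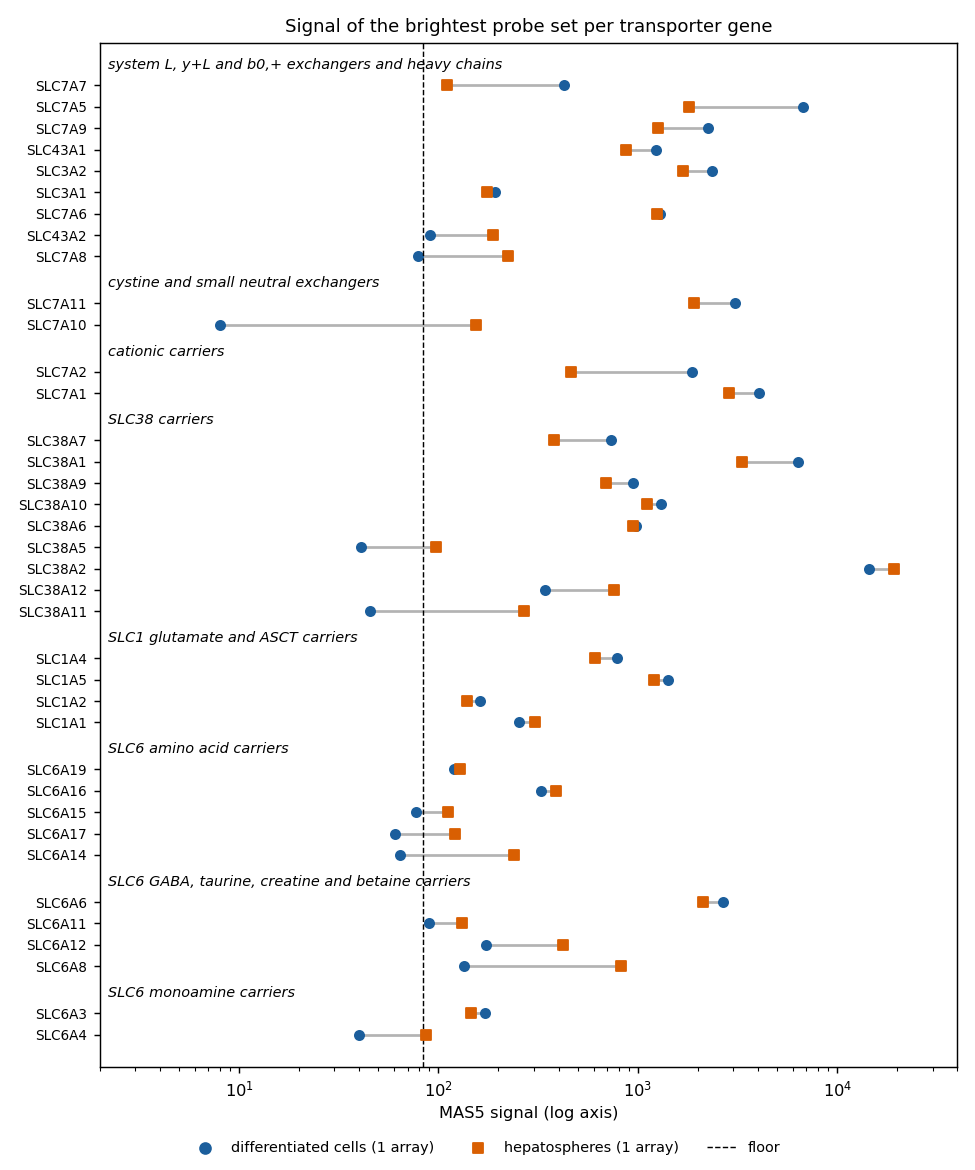
MAS5 signal (log axis) of the brightest probe set of each of the 37 transporter genes measured, with circles for differentiated cells, squares for hepatospheres and 1 array each, grouped by role. The dashed line is the floor of 84.1 units; SLC7A5, SLC7A7 and SLC7A2 lie far to the left in hepatospheres and SLC6A8 far to the right.

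The arrays themselves differed in ways that touch these values. The poly(A) control RNAs added to the samples read 2.07-fold higher on the hepatosphere array, and the ACTB 3' to 5' signal ratio, a measure of RNA integrity and labelling, was 1.48 in differentiated cells and 2.64 in hepatospheres, against 0.987 and 1.04 for GAPDH. Scaling to the poly(A) controls would shift the median of all genes by -0.99, so every direction here is relative to the bulk of genes. All 10 hepatocyte markers analysed here, albumin and the apolipoproteins among them, were above the floor in both cultures, but they differed between them: TTR (2.49), APOA2 (2.34) and ALB (1.44) were higher, and AFP (-2.50) and KRT8 (-1.11) lower. Of 5 fibroblast markers, 1 reached the floor in differentiated cells and 3 in hepatospheres, with summed signals of 351 and 3929, led by LUM (1.14 and 2677), while COL1A2 and PDGFRB stayed under the floor on both. Leukocyte markers reached the floor in 1 of 4 on either array (LYZ; PTPRC read 25.1 and 4.38), endothelial ones in 1 of 4 (PECAM1) and neuronal and glial ones in 3 of 5 (SNAP25, SYT1 and MBP). None of these markers was at 0, and their part in the transporter values was not tested.

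The exchangers that pair with a heavy chain held the clearest contrast. SLC7A5 (LAT1), the main exchanger of leucine and other large neutral amino acids in tumours, had a signal of 6726 in differentiated cells against 1812 in hepatospheres, 3.71-fold lower. Its difference of -1.89 placed it 12601st from the highest of 12766 genes. SLC7A8 (LAT2), the related exchanger of differentiated epithelia, went the other way, from 79.3 to 223, at least 2.65-fold higher. The differentiated cells were thus high for LAT1 and under the floor for LAT2, and the hepatospheres lower for the first and above the floor for the second. A second SLC7A8 probe set read 64.5 and 253. The rest were under the floor on both arrays and read lower, at 66.4 and 45.5, 62.7 and 2.96, and 7.68 and 4.93. With the mean over all its probe sets SLC7A8 did not reach the floor. The call for SLC7A8 rested on low signals, and its difference was 0.55 when the floor was raised to the 60th percentile.

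SLC7A7 (y+LAT1), the arginine and lysine exporter whose loss causes lysinuric protein intolerance, read 425 and 110, 3.86-fold lower. SLC7A6 (y+LAT2), its close relative, was nearly level at 1294 and 1250, and its 3 probe sets spanned -0.51 to -0.05. SLC7A9, the cystine and cationic exchanger of the kidney brush border, read 2243 and 1268, 1.77-fold lower. Its heavy chain SLC3A1 read 193 and 175, a difference of -0.15. SLC3A2, the heavy chain shared by SLC7A5, SLC7A6, SLC7A7, SLC7A8 and SLC7A11, read 2350 and 1690, a difference of -0.48. The heavy chain was thus within 2-fold where 2 of its light chains were close to 4-fold lower. SLC7A5, SLC7A7, SLC7A9 and SLC3A2 each rest on 1 probe set with a shared-sequence name (ending in _s_at, _x_at or _a_at), which marks probes that can read more than 1 transcript.

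The uniporters SLC43A1 (LAT3) and SLC43A2 (LAT4), which carry branched-chain amino acids without exchange, also parted. SLC43A1 read 1235 and 869, a difference of -0.51. SLC43A2 read 91.0 and 188, 2.07-fold higher, and its other probe set 105 and 157. This call fell under 2-fold in 8 of 11 processing alternatives, among them quantile normalization (0.86) and the raised floor (0.30). SLC43A3, a purine nucleobase carrier of the same family, was under the floor on its brightest probe set (7.90 and 76.0) and just over it in hepatospheres on the other (91.7). Over these 10 genes 9 were measured, 2 were higher, 2 lower and 5 within 2-fold, with a median of -0.48.

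Promoter letters are shown for the 3 SLC7 genes of this group furthest from 0, SLC7A5 and SLC7A7 on the lower side and SLC7A8 on the higher, because each holds CACGTG. This palindromic E-box is read by MYC and by the lysosomal factors of the TFEB family. The 250 bases before a gene start were taken from RefSeq on GRCh38.p14, 5′ to 3′ on the gene's strand, with the match in capitals. SLC7A5 lies at chr16:87869508-87869757, SLC7A7 (1 of 3 starts) at chr14:22815872-22816121 and SLC7A8 (1 of 4 starts) at chr14:23154394-23154643, on the minus strand in each case.
SLC7A5: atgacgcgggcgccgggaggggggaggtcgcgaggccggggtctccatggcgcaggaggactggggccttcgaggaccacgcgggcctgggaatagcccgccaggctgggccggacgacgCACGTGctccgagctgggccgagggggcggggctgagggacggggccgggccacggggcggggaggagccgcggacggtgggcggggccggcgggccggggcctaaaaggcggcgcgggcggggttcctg
SLC7A7: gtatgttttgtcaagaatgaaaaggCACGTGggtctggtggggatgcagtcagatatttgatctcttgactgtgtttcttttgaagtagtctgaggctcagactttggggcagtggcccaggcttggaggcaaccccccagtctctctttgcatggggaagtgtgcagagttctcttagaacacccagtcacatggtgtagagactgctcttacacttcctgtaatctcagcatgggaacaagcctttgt
SLC7A8: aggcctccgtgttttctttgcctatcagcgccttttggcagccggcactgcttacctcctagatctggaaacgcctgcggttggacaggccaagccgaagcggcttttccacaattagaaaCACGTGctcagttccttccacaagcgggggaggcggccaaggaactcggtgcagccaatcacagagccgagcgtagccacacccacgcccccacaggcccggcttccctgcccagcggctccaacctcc
The match begins 130, 225 and 129 bases before the start. CACGTG was in 8 of 60 windows of 40 transporter genes (13.3%) and in 6.34% of all 35116 windows. The 8 genes were SLC1A5, SLC1A7, SLC38A5, SLC43A1, SLC6A16, SLC7A5, SLC7A7 and SLC7A8, which stand on both sides of 0 or under the floor. TGATGNAA, the core bound by ATF4 with C/EBP proteins, was in 2 transporter windows (3.33%, against 3.14%), of SLC1A3 and SLC1A5. TGACNNNGC, the core of the antioxidant element read by NRF2, was in 6 (10%, against 10.9%), of SLC1A3, SLC1A5, SLC3A2, SLC7A1, SLC7A6 and SLC7A7. Transporter genes beyond the 40, SLC7A11, SLC7A2, SLC6A6 and SLC6A12 among them, had no window available and were not searched for any motif. Both strands were searched, no motif is contained in another, and a match is a description of letters only.

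**Figure D2:**
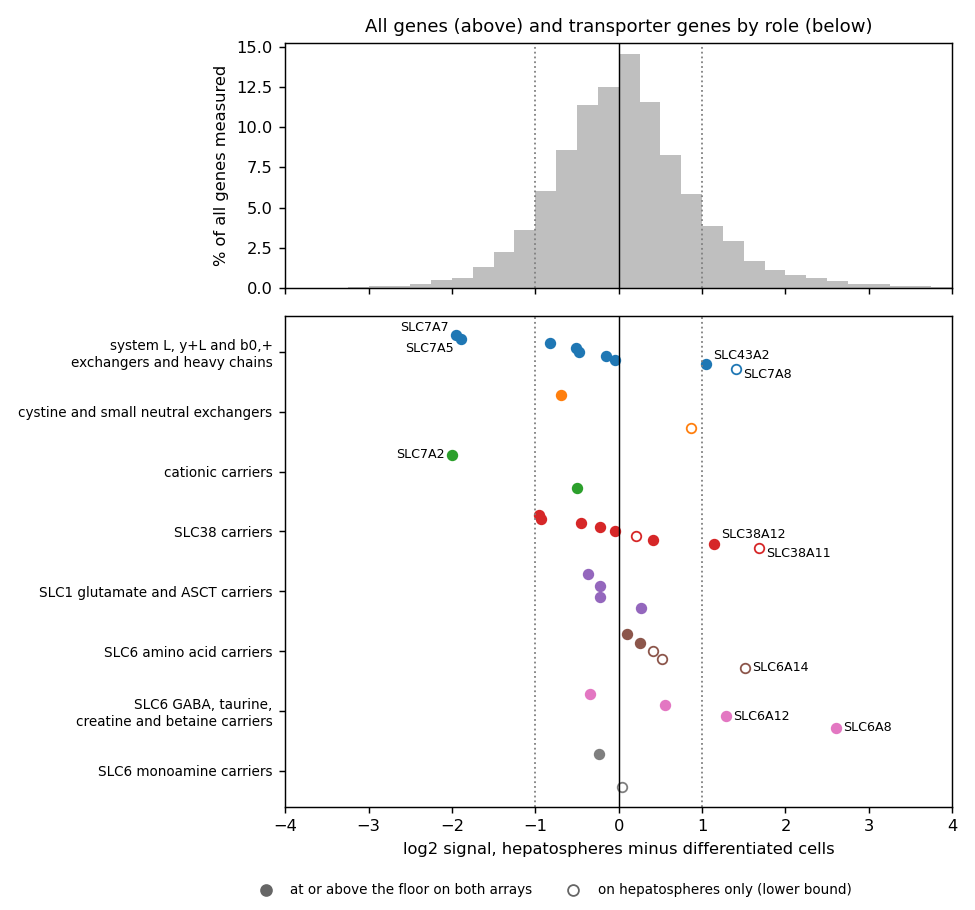
Upper panel: share of all 12766 genes measured in each bin of log2 difference (hepatospheres minus differentiated cells), with the 46 genes more than 4 apart outside the plotted range. Lower panel: the 37 transporter genes by role, 1 point per gene, open where the differentiated signal was under the floor; dotted lines mark 2-fold, and labels name the 10 genes beyond it.

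The cystine importer was lower, within 2-fold on its brightest probe set. SLC7A11 (xCT), which imports cystine for glutathione in exchange for glutamate, read 3075 and 1900 on its brightest probe set, 2797 and 1325 on a second and 280 and 185 on the third. The differences were -0.69, -1.08 and -0.60, so all 3 were lower and 1 passed 2-fold. SLC7A10 (Asc-1), a small neutral amino acid exchanger, read 8.06 and 154, at least 1.83-fold higher, and passed 2-fold when the floor was lowered to the 40th percentile (1.63). SLC7A13, a further member of this group, was under the floor on both arrays.

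Of the cationic amino acid carriers, SLC7A2 (CAT2), the low-affinity arginine carrier of hepatocytes, read 1862 and 464, 4.01-fold lower. It was the lowest of the 37 transporters, with a rank of 12636 among the 12766 genes. Its other 2 probe sets were under the floor, and with the mean over all 3 the difference was -0.20. SLC7A1 (CAT1), the widespread high-affinity arginine carrier, read 4045 and 2870 on its brightest probe set (-0.50) but 126 and 215 on a dimmer one (0.77). These probe sets go opposite ways, and no direction is given for SLC7A1. SLC7A3, SLC7A4 and SLC7A14 were under the floor on both arrays, SLC7A4 by a narrow margin at 83.9 in differentiated cells.

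The SLC38 carriers divided between the plasma membrane pair of glutamine and alanine importers. SLC38A1 (SNAT1) read 6314 and 3317, 1.90-fold lower, and its 3 probe sets above the floor were all lower, at -0.93, -0.90 and -0.60. SLC38A2 (SNAT2), the system A carrier induced when amino acids run short, read 14477 and 19230, 1.33-fold higher, and its 3 probe sets were close together at 0.40 to 0.44. The SLC38A2 direction reverses when arrays are scaled to the poly(A) controls (-0.64), whereas SLC38A1 is lower under each of the 11 alternatives.

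SLC38A7, a lysosomal glutamine exporter, was lower on all 4 probe sets. The brightest read 735 and 379 (-0.95), and the others 676 and 290 (-1.22), 475 and 166 (-1.52), and 161 and 50.1 (a bound of -0.93). SLC38A7 is therefore counted as within 2-fold only through its brightest probe set. SLC38A9, the lysosomal arginine sensor that signals to mTORC1, read 940 and 689, a difference of -0.45.

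A pair of less studied members were higher. SLC38A11 read 45.4 and 269, at least 3.20-fold higher, and SLC38A12 (formerly TMEM104) read 344 and 760, 2.21-fold higher. SLC38A11 rests on 1 probe set under the floor in differentiated cells, and its difference was 0.82 with the raised floor. SLC38A12 rests on 1 shared-sequence probe set and stood at 0.89 with arrays centred on their medians. SLC38A10 read 1301 and 1115 on one probe set and 453 and 695 on another, opposite ways. SLC38A6 was level at 977 and 948, and SLC38A5, a glutamine and histidine carrier, reached 97.6 in hepatospheres. SLC38A3 and SLC38A4, the hepatocyte system N and system A carriers, were under the floor on both arrays, at no more than 19.3. Of 11 SLC38 genes analysed here, 9 were measured, 2 higher, 0 lower and 7 within 2-fold (median -0.04).

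The SLC1 family differed little between the cultures. SLC1A5 (ASCT2), the sodium-coupled glutamine importer prominent in liver tumours, read 1413 and 1202, a difference of -0.23. SLC1A4 (ASCT1), a serine and alanine carrier, was lower on all 4 probe sets above the floor, by -0.54 to -0.37, with 787 and 608 on the brightest. SLC1A1 (EAAT3), a glutamate and cysteine carrier, read 253 and 305, and both its probe sets were above 0. SLC1A2 (EAAT2), a glutamate carrier of astrocytes and hepatocytes, read 162 and 139 on one probe set and 72.0 and 121 on another, opposite ways. SLC1A3 and SLC1A6 were under the floor, and SLC1A7 reached it only with a dimmer probe set (6.25 and 132). Of 7 genes 4 were measured, 0 were 2-fold apart, and the median was -0.23.

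The SLC6 family held the transporter with the highest difference. SLC6A8, the creatine carrier, went from 135 in differentiated cells to 821 in hepatospheres on its brightest probe set, 6.07-fold higher, with a rank of 175 among 12766 genes. Its other probe sets read 123 and 728, and 33.1 and 564, so all 3 were higher, by 2.57 to 2.74. It stayed at least 2-fold higher under each of the 11 alternatives, scaling to the poly(A) controls included (1.55). Probe sets shared with the near-identical pseudogene SLC6A10P are outside the rule, and reads from that copy cannot be told apart here from those of SLC6A8.

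SLC6A12, the betaine and GABA carrier that also serves cell volume, read 173 and 423, 2.45-fold higher, and stood at 0.98 with log2 of signal plus floor. SLC6A11 (GAT3), a GABA carrier, read 89.6 and 132. SLC6A6, the taurine carrier, read 2683 and 2114 (-0.34), and a probe set near the floor read 78.2 and 91.5. Creatine and betaine carriers were thus higher where the taurine carrier, on its brightest probe set, was slightly lower. Of the 5 genes of this group analysed here 4 were measured, 2 higher and 0 lower, with a median of 0.93.

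Of the SLC6 amino acid carriers, SLC6A14 (ATB0,+), a concentrative carrier of neutral and cationic amino acids that is often raised in epithelial tumours, read 64.2 and 239, at least 2.84-fold higher. With the raised floor it stood at 0.65. SLC6A19, the neutral amino acid carrier of gut and kidney, read 119 and 128, SLC6A16 read 327 and 389, SLC6A15 77.1 and 112, and SLC6A17 60.3 and 121. All 5 measured members lay above 0, but for SLC6A14, SLC6A15 and SLC6A17, under the floor in differentiated cells, the floor fixes that side. SLC6A16 (0.25) and SLC6A19 (0.10), measured on both arrays, were close to 0, and 2 of the 5 lay below it when arrays were centred on their medians and 3 with the poly(A) scaling. The other 5 (SLC6A5, SLC6A7, SLC6A9, SLC6A18 and SLC6A20) were under the floor on both arrays. The monoamine carriers were dim. SLC6A3, for dopamine, read 171 and 145, SLC6A4, for serotonin, 39.9 and 86.6, and SLC6A2 and the GABA carrier SLC6A13 were under the floor.

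**Figure D3:**
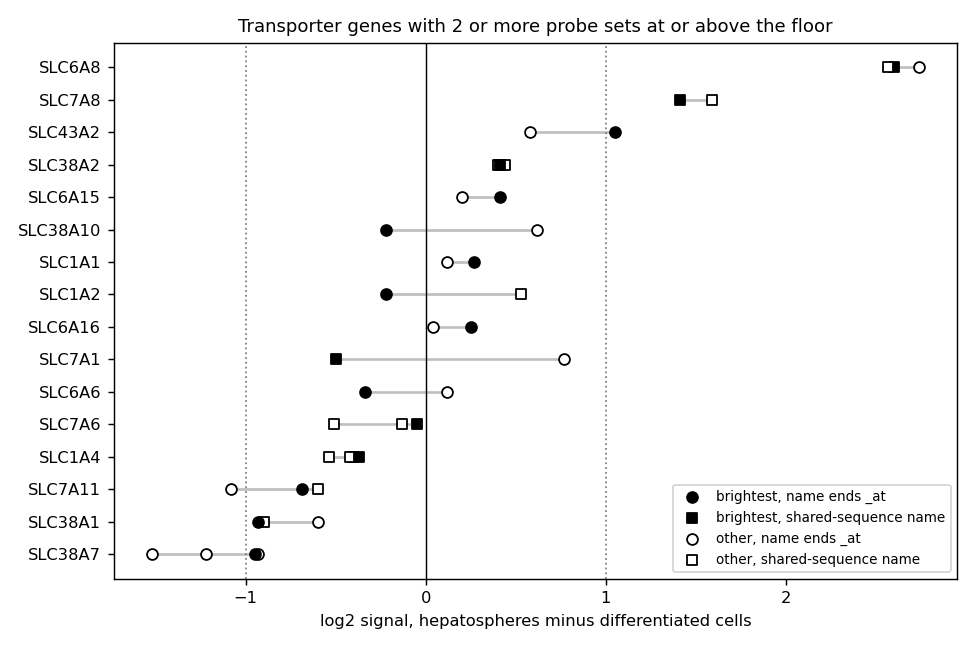
Log2 difference (hepatospheres minus differentiated cells) of each probe set at or above the floor, for the 16 transporter genes with 2 or more of them. Filled symbols are the brightest probe set of the gene and squares have shared-sequence names; SLC1A2, SLC6A6, SLC7A1 and SLC38A10 span 0, and SLC6A8 and SLC38A7 do not.

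Agreement between probe sets gives the one internal check these arrays allow, although probe sets of a gene share the same RNA. Of the 16 transporter genes with 2 or more probe sets at or above the floor, 12 had them all on the same side of 0. The other 4 were SLC1A2, SLC6A6, SLC7A1 and SLC38A10. Among the 10 genes called 2-fold apart, 3 had a second measured probe set (SLC6A8, SLC7A8 and SLC43A2), each on the same side as the first. The other 7, including SLC7A5, SLC7A7 and SLC7A2, rest on 1 measured probe set. For SLC7A8, and for SLC6A15 among the 12, both measured probe sets were under the floor in differentiated cells. The floor fixes their side, so their agreement is no check.

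Read across families over genes at or above the floor on both arrays, all 7 SLC7 members lay below 0 (median -0.82) and 5 of 7 SLC6 members above it (median 0.25), where 5470 of 11063 such genes lay above. This filter leaves out SLC7A8 and SLC7A10, which were above 0 and under the floor in differentiated cells. Over all 9 measured SLC7 genes 7 lay below 0 and 2 above, with a median of -0.69. SLC7A6, at -0.05, lay above 0 with quantile normalization or loess on signal, and SLC7A1 did with the mean over its probe sets (0.16) or without those of shared-sequence names (0.77). SLC6A16 and SLC6A19 lay below 0 with arrays centred on their medians. Of all 11 measured SLC6 genes 6 lay below 0 with the poly(A) scaling, so the SLC6 direction holds only relative to the bulk of genes. The mean signal over the arrays was taken on the log2 scale, by which SLC7A2 (1862 and 464) falls under 1000. Of 12 transporters with such a mean of 1000 or more, 11 lay below 0, where 2763 of 5047 genes that bright did. The exception was SLC38A2. This cut was chosen after values were seen, and the count takes only the brightest probe set. Dimmer measured probe sets of SLC6A6 (0.12), SLC7A1 (0.77) and SLC38A10 (0.62) lay above 0, so the direction of these genes is not settled. With quantile normalization or loess on signal 10 of the 12 lay below 0. Of 17 dimmer transporters at or above the floor on both arrays 8 lay above 0, and so did 3187 of 6017 such genes. The 7 higher calls were all among transporters with a mean signal under 1000, 3 of them under the floor in differentiated cells. In hepatospheres alone 8 of the 37 transporters reached the floor (9.89% of all genes measured did), and 0 did so in differentiated cells alone (3.45% of all genes). The floor of 84.1 is the median signal of the hepatosphere array, and that of the differentiated array was 70.6. Fewer signals therefore reach it in differentiated cells, for all genes as for the transporters. Why the transporters differed from all genes in these counts was not tested.

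**Figure D4:**
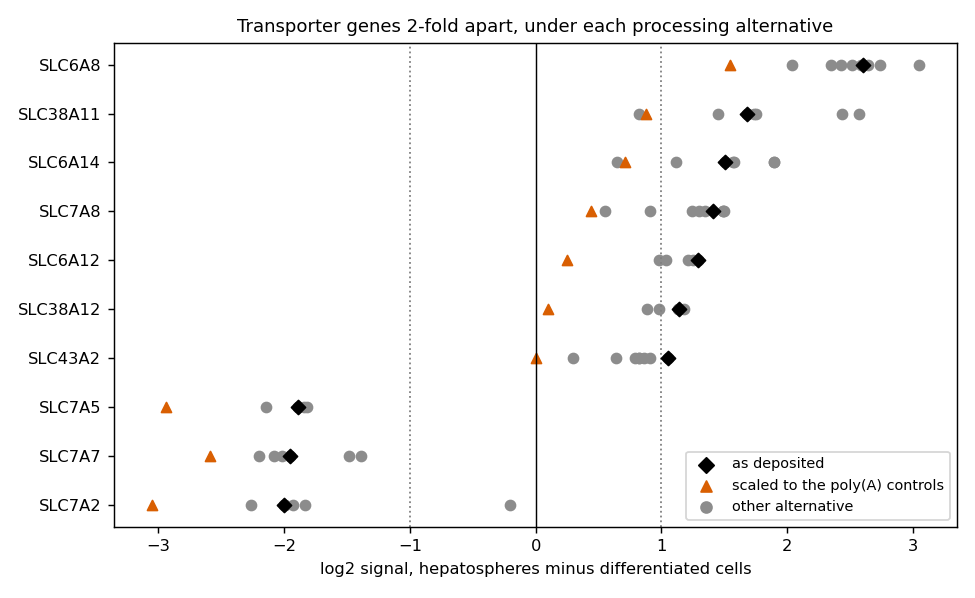
Log2 difference of the 10 transporter genes at least 2-fold apart, as deposited (diamonds), scaled to the poly(A) controls (triangles) and under the other processing alternatives (grey circles). SLC6A8, SLC7A5 and SLC7A7 stay beyond 2-fold wherever they are measured, and SLC43A2 crosses the line most often.

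Of the 6 antisense or opposite-strand symbols, 3 were measured and 0 were 2-fold apart. SLC7A6OS, the neighbour of SLC7A6, read 419 and 417. SLC38A2-AS1 and SLC38A4-AS1 reached the floor in hepatospheres alone, at 106 and 111. SLC6A12-AS1, SLC7A11-AS1 and SLC7A14-AS1 were under it on both arrays.

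Genes that sense, answer to or consume the transported amino acids were taken from 10 lists of 221 genes outside the 6 families, of which 202 were analysed here and 185 measured. Of these 22 were at least 2-fold higher (11.9%) and 29 lower (15.7%), against 12.5% and 8.83% of all genes, with a median of -0.10. Of the genes listed for the amino acid starvation response 7 of 22 were higher and 1 lower (median 0.45). The 7 include EIF2AK3 (1.47), a kinase that acts upstream of ATF4. ATF3, a stress transcription factor, read 212 and 1270 (2.59), ALDH18A1, which starts proline synthesis from glutamate, 1963 and 5507 (1.49), and ATF5 965 and 232 (-2.06). ATF4 itself, the factor that drives many of these genes, read 18164 and 18492, which is its RNA and not its protein. ASNS, the asparagine synthetase, read 7265 and 11917 (0.71). Beside them SLC38A2 stood at 0.41, SLC3A2 at -0.48, SLC7A11 at -0.69 and SLC7A5 at -1.89, which are textbook ATF4 targets as well.

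In the list on amino acid sensing at mTORC1, 2 of 34 genes were higher and 4 lower (median 0.09). Of all genes 12.5% were higher and 8.83% lower. ITFG2, a subunit of the KICSTOR scaffold, read 721 and 157 (-2.20), SAMTOR, the S-adenosylmethionine sensor, 271 and 769, and SESN3, a sestrin, 1155 and 408, each 2.83-fold apart. SESN2, the leucine sensor, stood at -0.29. Of 14 regulators tied to transporter genes 1 was higher and 2 lower (median -0.62). KEAP1 read 2000 and 588 (-1.77), NFE2L2, which encodes NRF2, 11840 and 5278 (-1.17), and TFEB 98.7 and 206 (1.06). MYC, a known activator of SLC7A5 and SLC1A5, read 3815 and 2185 (-0.80).

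In the list on glutathione synthesis from cystine 4 of 18 genes were lower and 2 higher (median -0.40). Of all genes 8.83% were lower and 12.5% higher. The list is broader than its name. Its lower genes were GCLM, CDO1, MAT1A (-1.13) and TXNRD1 (-1.11), and its higher ones GGT7 and CHAC1 (1.04). Among the lower ones only GCLM is part of an enzyme that makes glutathione. CDO1, which oxidises cysteine, read 575 and 43.7, at least 6.84-fold lower. GCLM and GCLC, the subunits of glutamate-cysteine ligase, stood at -1.20 and -0.73, beside -0.69 for the cystine importer SLC7A11. GGT7, a relative of the gamma-glutamyltransferases, read 351 and 1356 (1.95).

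For the next lists too, the shares of all genes were 12.5% higher and 8.83% lower. Of 17 measured glutamine and glutamate enzymes 3 were higher and 3 lower (median 0.03). Beside ALDH18A1 (1.49), PFAS and CTPS1, which spend glutamine on purines and CTP, stood at -1.47 and -1.41, and GLUL, glutamine synthetase, at -0.11. Of 20 arginine, urea and polyamine enzymes 2 were higher and 3 lower (median -0.20). AGMAT read 7913 and 2526 (-1.65), the arginase ARG2 1032 and 3056 (1.57) and the spermine synthase SMS 6814 and 2751 (-1.31). Of 17 serine, glycine and proline enzymes 2 were higher and 2 lower (median -0.07), with GLDC of the glycine cleavage system at -1.62 and ALDH4A1 and GCAT at 1.07 each.

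Branched-chain amino acid breakdown was higher in 3 of 21 and lower in 2 (median 0.06), with ACADSB at -1.32, HIBADH at 1.13, and BCKDHA and PCCA at 1.08. In the list on aromatic amino acid breakdown 2 of 15 genes were higher and 4 lower (median -0.25). Beside each of these counts stand 12.5% of all genes higher and 8.83% lower. TDO2, which opens the tryptophan ring, read 50.9 and 1363, at least 16.2-fold higher, KYAT1 345 and 2085 (2.60), and DDC, which makes aromatic amines, 5786 and 751 (-2.95). Of 18 amino acid and peptide carriers outside the 6 families 1 was higher and 4 lower (median -0.66). SLC25A18, a mitochondrial glutamate carrier, read 1056 and 2.88, at least 12.5-fold lower, SLC25A15, the mitochondrial ornithine carrier, 6669 and 2198 (-1.60), and SLC15A1, the peptide carrier PEPT1, 477 and 163 (-1.55).

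**Figure D5:**
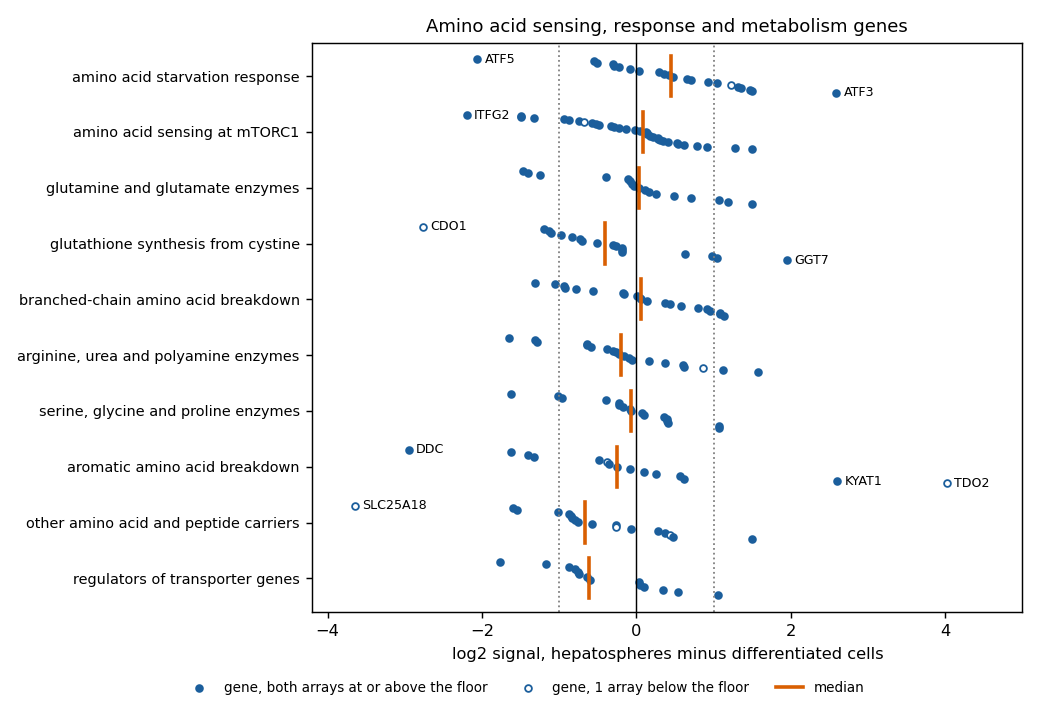
Log2 difference (hepatospheres minus differentiated cells) of the measured genes of 10 lists on amino acid sensing, response, metabolism and other carriers, 1 point per gene, open where 1 array was under the floor; bars are list medians. Medians run from -0.66 for other amino acid and peptide carriers to 0.45 for the starvation response.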

How the data were processed

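Total RNA from 2 PLC/PRF/5 cultures was hybridised to Affymetrix arrays, 1 per group, and source names in the labels gave the groups. The authors deposited intensity values, 1 MAS5 signal per probe set, MAS5 being named in the submitters' processing notes; neither its version nor its target is given in the sources used here. MAS5 scales each array globally, and weak signals are noisy. The 2% trimmed mean was 500.1 on both arrays. The number of arrays limits the precision, and detection calls were not used.

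Probe sets were named through GEO's array annotation: 41091 had 1 gene symbol, 1801 several, 11721 none and 62 were controls. All 60 member symbols matched RefSeq by gene ID. The probe set with the highest mean over the arrays (log2 signal) stood for a gene, which entered when it reached the floor, the higher 50th percentile of the arrays, on at least 1 array. Members and lists were chosen with earlier results of these data known. Every measured member is named, with the 3 largest differences among 2-fold apart genes of each related list and a few regulators and enzymes in any case. SLC38A12 was placed with the SLC38 carriers, and the promoter motifs and the split at a signal of 1000 were chosen, after values were seen. Counting was tested on simulated data. Computations ran in Python 3.11.15 with pandas 2.3.3, numpy 2.4.6, statsmodels 0.14.6 (loess, span 0.3) and scipy 1.17.1. Promoter windows came from RefSeq GRCh38.p14.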

Additional observations from a re-analysis of the deposited data

How the results depend on the processing

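No paired analysis was possible because each group has 1 array. Of the 37 measured transporters, 7 were higher and 3 lower by 2-fold as deposited, and none of these 10 reversed under the 10 alternatives chosen at the outset or the 1 chosen after seeing the data (the mean over probe sets that reach the floor). The number higher was 1 scaled to the poly(A) controls, 3 with the floor at the 60th percentile, 4 with log2 of signal plus floor and 11 with no floor. The number lower was 6 with arrays centred on their medians, 20 scaled to the poly(A) controls and 1 without shared-sequence probe sets, where SLC7A5 and SLC7A7 are not measured. The transporter median moved from -0.05 to -0.30 with centring, -1.15 with poly(A) scaling, -0.16 with the floor at the 60th percentile, 0.07 without shared-sequence probe sets and 0.12 with the mean over probe sets that reach the floor; for the scalings the all-gene median shifted by -0.23 and -0.99 as well. Related pathway genes numbered 13 higher and 45 lower with centring, and 3 and 102 with poly(A) scaling, against 22 and 29. Causes were not tested. Signals near 84.1 have no order, and calls of SLC7A8, SLC6A14, SLC38A11 and SLC43A2 rest on them.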

Other observations

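On the array 9 probe sets name a gene of these families together with others and were left out by the rule. One shared by the LAT1 pseudogenes SLC7A5P1 and SLC7A5P2 read 21.2 in differentiated cells and 374 in hepatospheres, at least 4.44-fold higher, while SLC7A5 itself was 3.71-fold lower. Another that also names those pseudogenes and SMG1P3 read 474 and 391. One shared by SLC6A8 and its pseudogene copies SLC6A10P and SLC6A10PB read 152 and 626, a difference of 2.04, beside 2.57 to 2.74 on the 3 probe sets annotated to SLC6A8 only, 2 of which have shared-sequence names. The other 2 shared by SLC6A8 and SLC6A10P were under the floor on both arrays.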
